A study of Mus musculus with 32 samples.

Results

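The genes described here carry glucose carbon through glycolysis, bring pyruvate into the mitochondrion and turn it over in the tricarboxylic acid (TCA) cycle. They are 36 named genes, found by symbol among the 20560 genes of the deposited expression table, and they are taken in 3 groups: 12 of glycolysis, 9 of pyruvate entry and 15 of the TCA cycle with its citrate carrier. All 36 were in the table and all passed the filter on low values in every comparison. The symbol Aldoa stood on 2 rows, and the abundant one (ENSMUSG00000030695) was taken.

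The study followed RNA in 3T3-L1 cells, a mouse preadipocyte line, during adipogenic differentiation with and without knockdown of Zbtb9, whose product carries a BTB domain and zinc fingers. Libraries came from day 0, the day of induction, and from days 3, 7 and 11. On each day there were 4 control libraries, from cells of WT genotype with a control short hairpin RNA (shRNA) labelled shCtrl, and 4 libraries labelled Zbtb9 knockdown, 2 from each of 2 shRNAs, which makes 32 libraries. In every group cells were induced after confluence with dexamethasone, isobutylmethylxanthine and insulin, were kept in insulin from day 3, and had medium without these agents from day 7. Day 0 libraries stand for the state before induction, and libraries of a later day had only the steps up to that day. The comparisons hold no cells without an shRNA and no uninduced cells at a later day. The labels call libraries of a group biological replicates without saying how the cultures were separated, so p-values measure the spread between these libraries.

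Glycolysis splits glucose into pyruvate in the cytosol, and lactate dehydrogenase interconverts pyruvate and lactate. Pyruvate crosses the inner mitochondrial membrane through a carrier made of Mpc1 and Mpc2, and is then either oxidised to acetyl-CoA by the pyruvate dehydrogenase complex or carboxylated to oxaloacetate by pyruvate carboxylase. In adipocytes these routes together supply the citrate that leaves the mitochondrion through Slc25a1 and is cleaved in the cytosol to the acetyl-CoA used for fatty acid synthesis.

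Stretches upstream of 4 members are shown. Ldha, Pcx and Slc25a1 had the largest day 7 rise of their group among genes with a long upstream stretch free of annotated exons. Pdk4 was the gene that fell at day 7. Most members lack the motif described next. Where a gene had more than 1 window, the one with the most matches to this motif was printed, so the choice favours it. The printed stretches are the reference sequence of RefSeq on GRCm38.p6, given 5′ to 3′ on the strand of the gene. Capitals mark the motif ACGTG on either strand (read as CACGT on the other), which is the core of the hypoxia response element. The palindrome CACGTG, an E-box, holds ACGTG on both strands. The windows are chr7:46845554-46845803 on the plus strand for Ldha, chr19:4510222-4510471 on the plus strand for Pcx, chr16:17928220-17928469 on the minus strand for Slc25a1 and chr6:5496310-5496528 on the minus strand for Pdk4.
Ldha: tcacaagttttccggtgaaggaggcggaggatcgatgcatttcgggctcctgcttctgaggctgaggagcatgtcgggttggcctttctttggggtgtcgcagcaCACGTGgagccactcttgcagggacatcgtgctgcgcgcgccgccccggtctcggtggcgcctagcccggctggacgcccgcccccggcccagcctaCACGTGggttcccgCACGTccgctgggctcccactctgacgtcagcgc
Pcx: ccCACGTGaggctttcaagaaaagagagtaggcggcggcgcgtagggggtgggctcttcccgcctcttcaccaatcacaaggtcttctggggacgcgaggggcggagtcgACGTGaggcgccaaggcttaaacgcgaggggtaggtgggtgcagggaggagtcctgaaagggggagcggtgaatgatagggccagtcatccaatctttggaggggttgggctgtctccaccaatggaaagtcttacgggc
Slc25a1: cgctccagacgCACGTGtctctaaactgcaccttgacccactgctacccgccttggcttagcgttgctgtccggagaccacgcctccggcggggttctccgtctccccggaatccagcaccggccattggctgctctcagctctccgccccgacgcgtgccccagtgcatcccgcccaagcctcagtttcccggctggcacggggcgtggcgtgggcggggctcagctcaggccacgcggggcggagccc
Pdk4: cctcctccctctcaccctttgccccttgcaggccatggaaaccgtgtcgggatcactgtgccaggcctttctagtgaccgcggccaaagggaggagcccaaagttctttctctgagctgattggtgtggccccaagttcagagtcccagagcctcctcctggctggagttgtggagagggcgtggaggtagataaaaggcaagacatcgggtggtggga
The first 3 windows reach from 250 bases to 1 base before an annotated start, and that of Pdk4 from 250 to 32 bases before one. For Ldha this is not the outermost start, since the gene as annotated begins at position 46841475, ahead of the printed window. No ACGTG stood in the Pdk4 window. Of the 36 genes, 35 had an entry, with 51 windows of 250 bases in all. ACGTG stood in 17 of these 51 windows, belonging to 11 of the 35 genes, and in 16.6% of all 32851 windows of the same table. By group it stood in 5 of 12 glycolysis genes (Aldoa, Ldha, Pgam1, Pgk1 and Pkm), in 2 of 9 pyruvate entry genes (Pcx and Pdhb) and in 4 of 14 TCA cycle genes (Idh3g, Mdh1, Ogdh and Slc25a1). All 11 genes with the motif rose with the knockdown at day 7, but so did 20 genes with an entry and without it, among them Pfkl, Pfkp, Tpi1, Mpc1, Mpc2, Cs and Mdh2. Pdk4, Hk1, Idh1 and Idh2, which did not rise, also had no ACGTG in their windows, and whether the motif and the calls go together was not tested. Windows of the same gene overlap, and several genes have more than 1. The E-box CACGTG stood in 6 of the 51 windows, belonging to 4 genes (the 3 printed and Ogdh), and in 6.02% of all windows, GGGCGG (a GC box) in 30 and in 32.7%, CCAAT in 26 and in 33.8%, and AAGGTCA, the letters of a nuclear receptor site, in 1 and in 4.08%. TATAAA was in 0 of the 51 windows and in 12.4% of all. These matches describe letters and not bound sites.

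Expression is given as deposited, in log2 units. Raising 2 to a value gives a linear value; these sum to between 23970000 and 27040000 in each library, and since the table holds no read counts, depth in reads is unknown. Zbtb9 itself was near the lower limit of what was tested, with group means of 3.15 to 3.59 in log2 units, and its knockdown minus control difference was -0.21, -0.22, -0.35 and -0.28 at days 0, 3, 7 and 11. It passed the test at day 7 (adjusted p = 0.0288), missed it at day 0 (0.271) and day 11 (0.173), and was under the filter at day 3. At days 0, 7 and 11 its knockdown means of 3.30, 3.24 and 3.27 lay under the filter's minimum linear value of 10, and its control means above it. Zbtb9 was thus tested largely through its control libraries, and the day 7 call does not measure how far it was knocked down. Of the 10 adipocyte marker genes, all were measured in every library, and their linear values summed to 20230 to 20840 in control libraries at day 0 and to 56320 to 66080 at day 11. Fibroblast and preadipocyte markers summed to 737400 to 772800 at day 0, 310000 to 339600 at day 3, 606100 to 653400 at day 7 and 635700 to 723200 at day 11. Of 5 leukocyte markers in the table, Ptprc and Itgam were under the minimum linear value of 10 in every library and 3 (Cd68, Csf1r and Lyz2) reached it, and of 5 endothelial markers Cdh5, Kdr, Tek and Emcn were under it and Pecam1 reached it. The 3 muscle markers in the table (Acta1, Ckm and Myh1) were under it in every library.

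Levels between genes are compared only as linear values per kilobase of annotated exon. In control libraries at day 7 the 4 most abundant members were glycolysis genes: Pgk1 stood at 21840 ± 1281 per kilobase (SD, n = 4), Aldoa at 19620 ± 1326, Pgam1 at 18750 ± 1171 and Tpi1 at 17450 ± 845. Hexokinase 1 (Hk1) at 1001 ± 108, Pfkl at 1623 ± 80.5 and Pfkp at 412 ± 31.9 were far below them. Ldha, the A subunit of lactate dehydrogenase, stood at 10840 ± 805 and its B partner Ldhb at 1244 ± 24.8. In pyruvate entry Pcx, pyruvate carboxylase, led with 4031 ± 57.1, and the carrier subunits were lowest, with Mpc1 at 295 ± 24.3 and Mpc2 at 123 ± 8.36. In the TCA cycle the mitochondrial NADP-dependent isocitrate dehydrogenase Idh2 led with 4382 ± 234, while Idh3a, the catalytic subunit of the NAD-dependent enzyme, stood at 338 ± 19.9. Mdh1 at 2139 ± 43.2 and Mdh2 at 2235 ± 82.6, the cytosolic and mitochondrial malate dehydrogenases, lay close together. The annotated exon length counts every listed transcript form, so genes with long alternative forms come out low per kilobase. Near-identical copies elsewhere in the genome (at least 300 bases at 95% identity) exist for 10 members: Gpi1, Tpi1, Pgk1, Pgam1, Eno1, Pkm, Ldha and Ldhb of glycolysis, and Pdhb and Suclg2. How the counting shared reads with those copies is not given in the sources used here, so levels of these genes are uncertain, and Gpi1, Pkm, Mpc1 and Pdha1 share more than 10% of their exon bases with another gene.

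All 3 groups had a higher mean level after induction than at day 0 in control cells, on different courses. In control cells the mean log2 value of the 12 glycolysis genes went from 13.10 ± 0.0095 (SD, n = 4) at day 0 to 13.60 ± 0.022 at day 3, 14.36 ± 0.085 at day 7 and 14.41 ± 0.12 at day 11. Over the same days the 9 pyruvate entry genes went from 10.67 ± 0.03 to 11.57 ± 0.027, 11.72 ± 0.0094 and back to 11.17 ± 0.02. The 15 TCA cycle genes went from 11.34 ± 0.012 to 11.78 ± 0.028, 11.87 ± 0.024 and 11.47 ± 0.029. Glycolysis thus stayed high to day 11, while the mitochondrial groups came down again after day 7. These are bulk libraries, in which fewer cells of a type and less RNA per cell cannot be told apart.

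**Figure D1:**
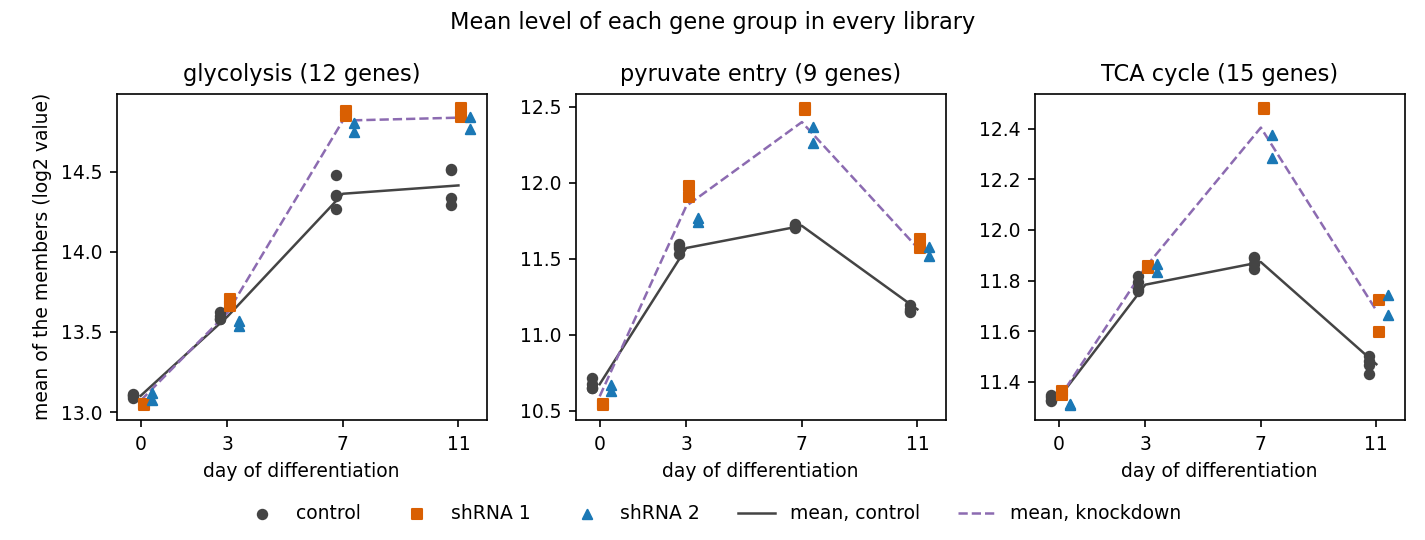
Mean log2 value of the genes of each group (vertical axis, scale differing between panels) in every library against the day of differentiation; points are libraries, with control in grey, shRNA 1 in orange and shRNA 2 in blue, and lines join group means. Glycolysis control libraries stay near 14.4 from day 7 to day 11, pyruvate entry and TCA cycle fall back, and the knockdown libraries lie above all control libraries at days 7 and 11.

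Genes with an adjusted p under 0.05 in limma are called, and only these are described as having risen or fallen. Against day 0, 30 of the 36 members rose and 3 fell in control cells at day 3, when 76.6% of the 13421 genes tested were called, 38.3% higher and 38.2% lower. At day 7, 34 rose and 0 fell (69.1% of all genes called, 33.3% higher and 35.8% lower), and at day 11, 28 rose and 2 fell (64.6%, 33% and 31.6%). With so many genes moving, the number called among the members says little, and it is their direction that stands out: their median change at day 7 was 0.67, beside -0.01 for all genes tested. From day 3 to day 7, 21 members rose and 7 fell (74.2% of all genes called, 37.6% higher and 36.6% lower). From day 7 to day 11, 4 rose and 22 fell (55%, 28.9% and 26.1%).

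In glycolysis 9 of 12 genes rose by day 3 and 2 fell, 11 rose by day 7, and 11 rose by day 11 with 1 lower, with median changes of 0.64, 1.37 and 1.51. Pfkp, the platelet subunit of phosphofructokinase, the committing step of the pathway, had the largest rise at day 7. Its control libraries read 10.67, 10.60, 10.72 and 10.72 at day 0 and 12.35, 12.46, 12.57 and 12.34 at day 7, with no overlap, a change of 1.75 (SE 0.072) and an adjusted p of 4.33e-13. Gpi1, glucose-6-phosphate isomerase, did not pass the test at day 3 (0.16, adjusted p = 0.0858) and rose by 1.43 and 1.88 at days 7 and 11. Hk1 was lower at day 3 (-0.47) and higher at day 7 (1.02) than at day 0. The lactate dehydrogenase subunits parted: Ldha rose by 1.16, 1.52 and 1.48, whereas Ldhb fell at day 3 (-0.71), did not pass the test at day 7 (0.03) and was below its day 0 level at day 11 (-0.33). Between days 7 and 11 Gpi1, Pfkl, Eno1 and Pkm rose further, Ldhb fell, and the other 7 did not pass the test.

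In pyruvate entry all 9 genes rose by day 3 and by day 7. Pcx, which makes oxaloacetate from pyruvate, had the largest rise of the 36 members at days 3 and 7. Its control libraries read 11.85, 11.94, 12.00 and 11.92 at day 0, 14.44, 14.46, 14.40 and 14.42 at day 3, 14.24, 14.21, 14.25 and 14.21 at day 7 and 13.04, 12.91, 12.84 and 12.90 at day 11. Every later library lay above every day 0 library, and the change was 2.50 (SE 0.037) at day 3 and 1.00 (SE 0.037) at day 11. The pyruvate dehydrogenase kinases, which switch the complex off by phosphorylation, rose on different courses. Pdk1 control libraries read 10.77, 10.78, 10.80 and 10.60 at day 0, 11.15, 11.29, 11.31 and 11.24 at day 3, 12.61, 12.67, 12.68 and 12.38 at day 7 and 12.54, 12.78, 12.57 and 12.79 at day 11. Pdk4 read 10.24, 10.15, 10.09 and 10.16, 11.44, 11.38, 11.46 and 11.42, 12.20, 12.32, 12.29 and 12.17 and 10.26, 10.38, 10.32 and 10.39 on the same days. Pdk1 thus stayed high from day 7 on, with a day 11 change from day 0 of 1.93, while Pdk4 rose by 2.08 to day 7 and then fell by 1.91 between days 7 and 11 (adjusted p = 3.45e-28). Pdha1, the alpha subunit of pyruvate dehydrogenase, rose by 0.75 at day 3 and ended below its day 0 level (-0.22, adjusted p = 2e-07).

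In the TCA cycle 12 of 15 genes rose by day 3 and Idh1, the cytosolic NADP-dependent isocitrate dehydrogenase, fell (-0.22); 14 rose by day 7 and 9 by day 11. Idh2 had the largest day 7 change. Its control libraries read 12.23, 12.22, 12.12 and 12.12 at day 0, 13.42, 13.51, 13.55 and 13.39 at day 7 and 12.25, 12.18, 12.16 and 12.13 at day 11. All day 7 libraries lay above those of both other days, and the change from day 0 was 1.30 (SE 0.038) at day 7 and 0.01 (SE 0.038) at day 11, with an adjusted p of 0.823 for the latter. Mdh2 rose by 0.91 at day 3 and Idh3a by 0.90, their highest points in control cells. From day 7 to day 11, 14 of the 15 genes fell, with a median change of -0.38; Idh1, at -0.08, did not pass the test. Over the same days 7 of 9 pyruvate entry genes fell, and Mpc1 and Pdk1 did not pass the test.

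Knockdown of Zbtb9 left the 36 genes without a call at day 0 and raised nearly all of them at day 7. At day 0 limma called 0 of 36, beside 3.25% of 13216 genes tested (0.817% higher and 2.44% lower), and 7 members (Aldoa, Pcx, Dlat, Pdk4, Idh1, Idh2 and Dlst) had an unadjusted p under 0.05. At day 3, 12 members rose and 3 fell, beside 14.6% and 12.1% of 13139 genes (26.7% in all), so that the share of members called higher was above that of all genes and the share called lower below it. At day 7, 32 rose and 1 fell, beside 24.9% and 22.6% of 13299 genes (47.6% in all). At day 11, 28 rose and 1 fell, beside 16.8% and 16.2% of 13281 genes (33% in all). The median change of the members was 0.11, 0.52 and 0.29 on days 3, 7 and 11, where that of all genes tested lay between -0.01 and 0.01. The knockdown libraries lay above all control libraries for 15 members at day 3 (15.5% of all genes tested), 32 at day 7 (23.3%) and 27 at day 11 (17%), and below all of them for 4, 1 and 1 members (12.8%, 20.9% and 17.3%). With the shRNAs as separate groups of 1 model, 8 members were called at day 0 and 25 at day 3, when 25.3% and 40.4% of all genes were called in the same fits. With replicate number as a block, 7 were called at day 3 and 16 at day 11, beside 6.43% and 12.4% of all genes.

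**Figure D2:**
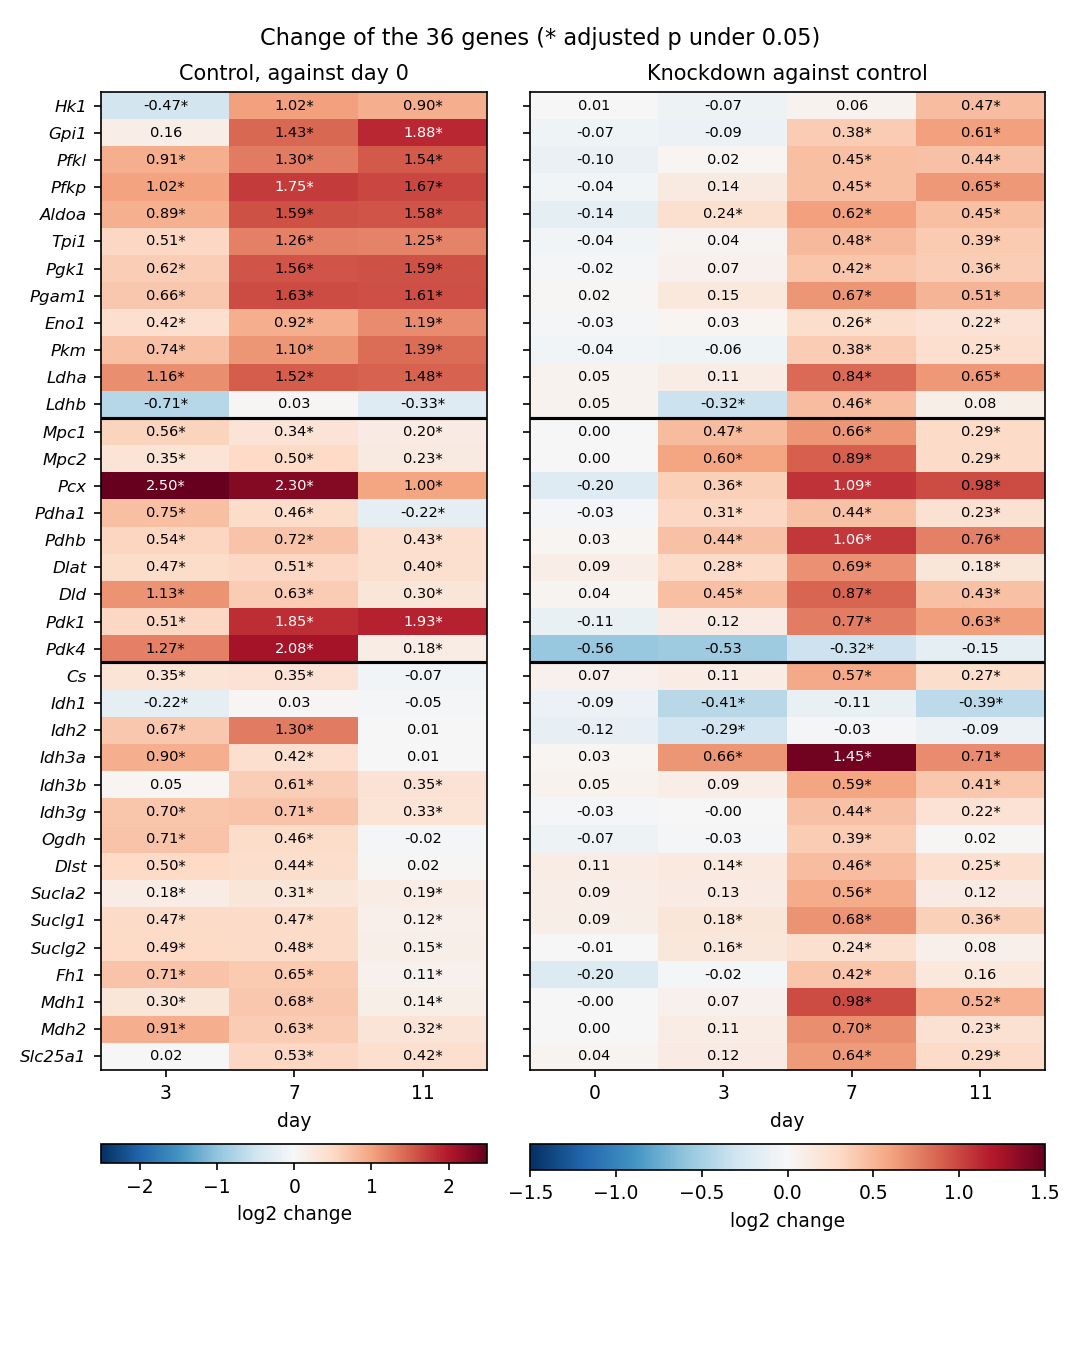
Log2 change of each gene (rows, grouped from top to bottom as glycolysis, pyruvate entry and TCA cycle) in control cells against day 0 (left) and in knockdown against control cells of the same day (right); colour and printed numbers give the change and stars an adjusted p under 0.05. The day 7 column of the right panel is red in 32 of 36 rows with a star, while Pdk4, Idh1 and Idh2 stand apart from their groups.

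The groups had different courses. At day 3 pyruvate entry had the most calls for its size, with 7 of 9 genes called higher at day 3 and a median of 0.36, against 1 of 12 for glycolysis and 4 of 15 for the TCA cycle. At day 7, 11 of 12 glycolysis genes, 8 of 9 pyruvate entry genes and 13 of 15 TCA cycle genes rose, with medians of 0.45, 0.77 and 0.56. At day 11 the medians were 0.44, 0.29 and 0.23, with 11, 8 and 9 genes called higher. The glycolysis median was thus about as high at day 11 as at day 7, and those of pyruvate entry and the TCA cycle were lower. Whether the groups differ from each other was not tested.

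In glycolysis Ldha had the largest rise at day 7. Ldha stood at 15.19, 15.07, 15.25 and 15.01 in the 4 control libraries, at 16.09 and 16.08 with shRNA 1 and at 15.85 and 15.87 with shRNA 2. At day 11 it stood at 14.96, 15.20, 15.03 and 15.16 in the 4 control libraries, at 15.80 and 15.90 with shRNA 1 and at 15.56 and 15.67 with shRNA 2. On both days every knockdown library lay above every control library, those of shRNA 1 highest. The change was 0.84 (SE 0.068) at day 7, a 1.8-fold rise (adjusted p = 9.45e-08), and 0.65 (SE 0.085) at day 11 (adjusted p = 0.000171). The upstream window of this gene, printed above, holds ACGTG at 3 places, of which a pair are the palindrome.

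Ldhb, the partner subunit, stood differently against its controls on each day. Tests of its knockdown difference against that of day 0 called no change (limma, adjusted p = 0.26, 0.0891 and 0.928 at days 3, 7 and 11). From day 7 to day 11 no change was called either (0.182), and day 7 against day 3 was not tested. At day 3 Ldhb stood at 10.16, 10.14, 10.26 and 10.20 in the 4 control libraries, at 9.81 and 9.77 with shRNA 1 and at 9.93 and 9.97 with shRNA 2. All knockdown libraries lay below all control libraries, a change of -0.32 (SE 0.059) with an adjusted p of 0.00131, which came to 0.0762 in 1 fit of all 32 libraries. At day 7 Ldhb stood at 10.97, 10.92, 10.91 and 10.92 in the 4 control libraries, at 11.26 and 11.17 with shRNA 1 and at 11.63 and 11.52 with shRNA 2, now with every knockdown library above the controls, a change of 0.46 (SE 0.085, adjusted p = 0.000474). At day 11 it stood at 10.66, 10.62, 10.48 and 10.51 in the 4 control libraries, at 10.37 and 10.23 with shRNA 1 and at 11.10 and 10.91 with shRNA 2. There the shRNA 1 libraries lay below and the shRNA 2 libraries above all controls, and the pooled change of 0.08 (interval -0.35 to 0.51) did not pass the test.

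The phosphofructokinase subunits Pfkl and Pfkp rose at days 7 and 11, while the muscle subunit Pfkm, which is not among the 36 genes, rose less at day 7 (0.26) and did not pass the test at day 11 (0.13, adjusted p = 0.063). Pfkl, the liver subunit, stood at 13.42, 13.38, 13.49 and 13.32 in the 4 control libraries, at 13.89 and 13.86 with shRNA 1 and at 13.75 and 13.90 with shRNA 2 on day 7. Pfkp stood at 12.35, 12.46, 12.57 and 12.34 in the 4 control libraries, at 12.99 and 13.00 with shRNA 1 and at 12.76 and 12.77 with shRNA 2 on day 7 and at 12.15, 12.47, 12.24 and 12.53 in the 4 control libraries, at 13.13 and 13.23 with shRNA 1 and at 12.72 and 12.91 with shRNA 2 on day 11. None of these groups overlapped. The changes were 0.45 (SE 0.053) and 0.45 (SE 0.069) at day 7 and 0.44 (SE 0.061) and 0.65 (SE 0.12) at day 11, where that of Pfkp was the largest of glycolysis (adjusted p = 0.00259). Neither gene passed the test at day 3, with 0.02 and 0.14.

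Of the other glycolysis enzymes, aldolase (Aldoa) was the only one called higher at day 3, by 0.24 (adjusted p = 0.000869), and it rose by 0.62 at day 7. Phosphoglycerate mutase (Pgam1) rose by 0.67 at day 7, triosephosphate isomerase (Tpi1) by 0.48, phosphoglycerate kinase (Pgk1) by 0.42, Gpi1 by 0.38, pyruvate kinase (Pkm) by 0.38 and enolase (Eno1) by 0.26. At day 11 these 7 genes were higher by 0.22 (Eno1) to 0.61 (Gpi1). The day 11 calls of Pkm and Eno1 were weak: leaving out 1 library brought the adjusted p of Pkm to between 0.0597 and 0.130 (shRNA 1 replicate 1 or 2, shRNA 2 replicate 2, control replicate 1 or 3) and that of Eno1 to between 0.0538 and 0.0894 (shRNA 1 replicate 1, shRNA 2 replicate 2, control replicate 1 or 3). Hk1 stood at 12.97, 13.02, 13.27 and 12.95 in the 4 control libraries, at 13.11 and 13.08 with shRNA 1 and at 13.12 and 13.14 with shRNA 2 on day 7, where control replicate 3 lay above the other 7 libraries; its change of 0.06 did not pass the test, and without that library it was 0.13 with an adjusted p of 0.0471. At day 11 Hk1 rose by 0.47 (SE 0.089), with every knockdown library above the controls. For Pgam1 at day 3, the change of 0.15 had an adjusted p of 0.0501, and passed the test when either shRNA 2 library was left out (0.0159 without replicate 1 and 0.0199 without replicate 2).

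In pyruvate entry both subunits of the mitochondrial pyruvate carrier rose from day 3 on. Mpc1 stood at 9.56, 9.36, 9.39 and 9.59 in the 4 control libraries, at 9.93 and 9.93 with shRNA 1 and at 9.94 and 9.97 with shRNA 2 on day 3. Mpc2 stood at 9.65, 9.49, 9.74 and 9.78 in the 4 control libraries, at 10.25 and 10.37 with shRNA 1 and at 10.27 and 10.16 with shRNA 2 on the same day. Neither pair of groups overlapped, and the changes were 0.47 (SE 0.063) and 0.60 (SE 0.068), with adjusted p-values of 0.000111 and 3.27e-05. At day 7 Mpc1 stood at 9.25, 9.15, 9.22 and 9.42 in the 4 control libraries, at 10.06 and 10.04 with shRNA 1 and at 9.79 and 9.81 with shRNA 2. Mpc2 stood at 9.70, 9.75, 9.91 and 9.88 in the 4 control libraries, at 10.69 and 10.79 with shRNA 1 and at 10.57 and 10.77 with shRNA 2 on that day. The groups were again apart, by 0.66 (SE 0.08) and 0.89 (SE 0.066). By day 11 the changes had come down to 0.29 and 0.29, and the call for Mpc2 at day 11 was lost without shRNA 2 replicate 2 (adjusted p = 0.059), control replicate 1 (0.0696) or control replicate 4 (0.0721).

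Pcx had the largest rise of pyruvate entry at days 7 and 11. It stood at 14.24, 14.21, 14.25 and 14.21 in the 4 control libraries, at 15.48 and 15.41 with shRNA 1 and at 15.05 and 15.30 with shRNA 2 on day 7 and at 13.04, 12.91, 12.84 and 12.90 in the 4 control libraries, at 14.05 and 13.71 with shRNA 1 and at 13.96 and 13.92 with shRNA 2 on day 11. On both days the lowest knockdown library was well above the highest control library. The change was 1.09 (SE 0.074) at day 7, a 2.12-fold rise (adjusted p = 2.54e-08), and 0.98 (SE 0.074) at day 11, a 1.98-fold rise (adjusted p = 3.18e-06). At day 3 the rise was 0.36, and at day 0 the difference of -0.20 did not pass the test.

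The 4 members that are subunits of the pyruvate dehydrogenase complex rose at days 3, 7 and 11. The beta subunit of pyruvate dehydrogenase, Pdhb, changed most of the 4 at days 7 and 11. It stood at 11.27, 11.14, 11.06 and 11.21 in the 4 control libraries, at 12.24 and 12.33 with shRNA 1 and at 12.10 and 12.22 with shRNA 2 on day 7, where every knockdown library was above every control library; the change was 1.06 (SE 0.06), with an adjusted p of 2.55e-09. Pdhb rose by 0.44 at day 3 and 0.76 at day 11, against 0.31, 0.44 and 0.23 at days 3, 7 and 11 for its alpha partner Pdha1. The acetyltransferase Dlat rose by 0.28, 0.69 and 0.18, and Dld, the dihydrolipoyl dehydrogenase that also serves the oxoglutarate complex, by 0.45, 0.87 and 0.43. The day 11 call of Dlat was lost without shRNA 1 replicate 1 (adjusted p = 0.0534), control replicate 2 (0.0562) or control replicate 4 (0.0562).

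Of the kinases that act on this complex, Pdk1 rose and Pdk4 fell at day 7, and the others, Pdk2 and Pdk3, which are not among the 36 genes, rose by 0.52 and 0.46. Pdk1 stood at 12.61, 12.67, 12.68 and 12.38 in the 4 control libraries, at 13.40 and 13.37 with shRNA 1 and at 13.28 and 13.38 with shRNA 2 on day 7 and at 12.54, 12.78, 12.57 and 12.79 in the 4 control libraries, at 13.47 and 13.41 with shRNA 1 and at 13.09 and 13.25 with shRNA 2 on day 11. The groups were apart on both days, by 0.77 (SE 0.064) and 0.63 (SE 0.089), with adjusted p-values of 1.25e-07 and 0.000302. Pdk4 stood at 12.20, 12.32, 12.29 and 12.17 in the 4 control libraries, at 12.03 and 11.98 with shRNA 1 and at 11.84 and 11.86 with shRNA 2 on day 7. Here every knockdown library was below every control library, a change of -0.32 (SE 0.056, adjusted p = 0.000259, and 0.137 in 1 fit of all 32 libraries). The knockdown libraries of Pdk4 were also below all controls at day 0, at 10.24, 10.15, 10.09 and 10.16 in the 4 control libraries, at 9.34 and 9.30 with shRNA 1 and at 9.84 and 9.92 with shRNA 2. That change of -0.56 (SE 0.14) had an adjusted p of 0.0645, and of 0.0387 or 0.0172 without shRNA 2 replicate 1 or 2. At day 3 Pdk4 stood at 11.44, 11.38, 11.46 and 11.42 in the 4 control libraries, at 11.34 and 11.49 with shRNA 1 and at 10.35 and 10.39 with shRNA 2, so that 1 shRNA 1 library was just below and the other just above all controls, and the shRNA 2 libraries were far below, and the pooled change of -0.53 (interval -1.24 to 0.17) did not pass the test. At day 11 the change was -0.15 (adjusted p = 0.0844, and 0.0239 without shRNA 1 replicate 2).

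In the TCA cycle Idh3a had the largest rise at days 3, 7 and 11, and at days 3 and 7 it had the largest of all 36 genes. It stood at 11.27, 11.16, 11.26 and 11.20 in the 4 control libraries, at 11.93 and 11.86 with shRNA 1 and at 11.90 and 11.86 with shRNA 2 on day 3, at 10.68, 10.78, 10.67 and 10.84 in the 4 control libraries, at 12.38 and 12.38 with shRNA 1 and at 11.89 and 12.11 with shRNA 2 on day 7, and at 10.36, 10.24, 10.36 and 10.36 in the 4 control libraries, at 11.25 and 11.09 with shRNA 1 and at 10.95 and 10.88 with shRNA 2 on day 11. On all 3 days every knockdown library was above every control library. The change was 0.66 (SE 0.042) at day 3, 1.45 (SE 0.099) at day 7, a 2.72-fold rise, and 0.71 (SE 0.076) at day 11, with adjusted p-values of 2.26e-07, 2.38e-07 and 3.67e-05. In control cells Idh3a fell by 0.48 from day 3 to day 7, whereas in the knockdown libraries the day 7 values of shRNA 1 were above and those of shRNA 2 close to or above their day 3 values. The other subunits of the same enzyme rose less: Idh3b by 0.59 and 0.41 and Idh3g by 0.44 and 0.22 at days 7 and 11, and neither passed the test at day 3.

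The NADP-dependent isocitrate dehydrogenases did not follow. Idh1 stood at 12.52, 12.37, 12.53 and 12.49 in the 4 control libraries, at 11.94 and 11.91 with shRNA 1 and at 12.27 and 12.14 with shRNA 2 on day 3. Every knockdown library was below every control library, most so with shRNA 1, a change of -0.41 (SE 0.073, adjusted p = 0.0015). On day 11 Idh1 stood at 12.69, 12.67, 12.64 and 12.59 in the 4 control libraries, at 12.34 and 11.95 with shRNA 1 and at 12.48 and 12.27 with shRNA 2, again without overlap, a change of -0.39 (SE 0.094, adjusted p = 0.00872). The day 7 change of -0.11 did not pass the test (adjusted p = 0.0696, 0.0466 without shRNA 1 replicate 1, and 0.0112 when libraries were rescaled to equal totals). Idh2 stood at 12.82, 12.84, 12.82 and 12.90 in the 4 control libraries, at 12.53 and 12.42 with shRNA 1 and at 12.65 and 12.63 with shRNA 2 on day 3, where every knockdown library was below the controls, a change of -0.29 (SE 0.051, adjusted p = 0.000871). Its groups overlapped at days 7 and 11, with changes of -0.03 (interval -0.13 to 0.08) and -0.09 (interval -0.27 to 0.10).

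Among the remaining TCA cycle genes the malate dehydrogenases rose most at day 7. Mdh1 stood at 12.45, 12.44, 12.39 and 12.41 in the 4 control libraries, at 13.55 and 13.57 with shRNA 1 and at 13.19 and 13.30 with shRNA 2, with no overlap, a change of 0.98 (SE 0.073). Mdh2 rose by 0.70 on that day and Suclg1, the alpha subunit shared by both forms of succinate-CoA ligase, by 0.68. Sucla2, the beta subunit of the ATP-forming ligase, rose by 0.56, against 0.24 for Suclg2 of the GTP-forming one. The citrate carrier Slc25a1 rose by 0.64, citrate synthase (Cs) by 0.57, the oxoglutarate dehydrogenase subunits Dlst and Ogdh by 0.46 and 0.39, and fumarase (Fh1) by 0.42. At day 11 Mdh1 (0.52), Suclg1 (0.36), Slc25a1 (0.29), Cs (0.27), Dlst (0.25) and Mdh2 (0.23) were still called higher. Ogdh (0.02), Sucla2 (0.12), Suclg2 (0.08) and Fh1 (0.16) did not pass the test there. Sucla2 passed it at day 11 without shRNA 2 replicate 2 (adjusted p = 0.0343). At day 3 Suclg1 (0.18), Suclg2 (0.16) and Dlst (0.14) were called higher by small amounts, Dlst not without control replicate 1 (adjusted p = 0.0794), 3 (0.0685) or 4 (0.109). Cs at 0.11 and Slc25a1 at 0.12 missed the threshold at day 3 and passed it without shRNA 2 replicate 1 (0.0347 and 0.0325), and Ldha at 0.11 and Sucla2 at 0.13 passed it without shRNA 2 replicate 2 (0.0294 and 0.0284).

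**Figure D3:**
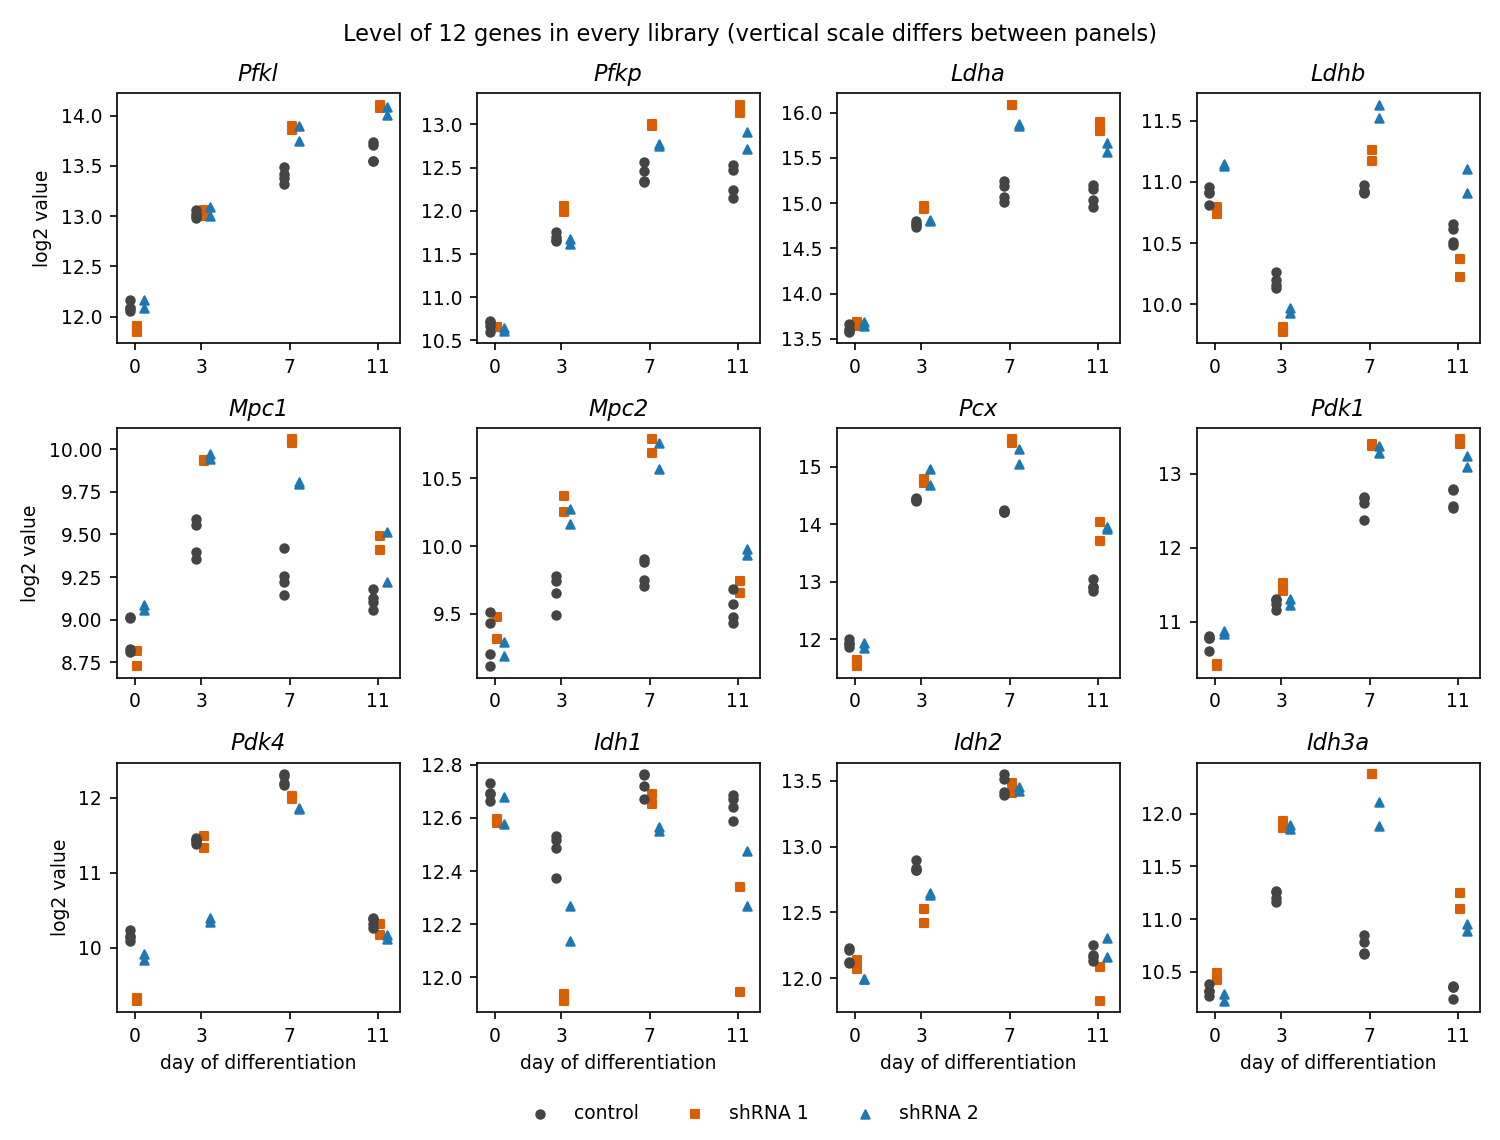
Log2 value (vertical axis, scale differing between panels) of 12 genes in every library against the day of differentiation; each point is 1 library, with control in grey, shRNA 1 in orange and shRNA 2 in blue. Idh3a, Pcx and Ldha of the knockdown libraries lie above all controls at days 7 and 11, Pdk4 and Idh1 lie below or among them, and Ldhb changes sides between days.

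Whether the knockdown difference itself changed between days was tested in 1 fit of all 32 libraries. Against day 0, the knockdown minus control difference had moved upward for 8 members and downward for 1 at day 3, beside 3.69% and 2.88% of 13571 genes. It had moved upward for 31 and downward for 0 at day 7 (16.8% and 13.2% of all genes), and upward for 23 and downward for 1 at day 11 (12.4% and 10.8%). The 8 members at day 3 were Aldoa, Mpc1, Mpc2, Pcx, Pdha1, Pdhb, Dld and Idh3a, and the 1 in the other direction was Idh1 (-0.33), as at day 11 (-0.30). At day 7 the 5 members without such a call were Hk1, Ldhb, Pdk4, Idh1 and Idh2. The difference grew most for Idh3a, by 1.41 (SE 0.11), Pcx, by 1.28 (SE 0.11), and Pdhb, by 1.03 (SE 0.073).

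From day 7 to day 11, a comparison added after the other results had been seen, the knockdown difference became smaller for 17 members and larger for 1 (7.66% and 5.05% of all genes). Of the 17, 11 were TCA cycle genes and 6 were pyruvate entry genes. Idh3a changed most (-0.73, SE 0.11, adjusted p = 3.35e-05), followed by Mpc2 (-0.60) and Dlat (-0.50). No glycolysis gene was among the 17, and the 1 with a larger difference was Hk1 (0.41, adjusted p = 0.00394). Ldha (-0.20, interval -0.39 to -0.01) and Pcx (-0.10, interval -0.33 to 0.13) did not pass the test.

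The shRNAs gave the same direction for most members once the cells had differentiated, with differences in size. At day 7 shRNA 1 raised 32 members and lowered 1 (27.7% and 24.3% of all genes), and shRNA 2 raised 32 and lowered 2 (24% and 22%). At day 11 shRNA 1 raised 28 and lowered 3 (21.4% and 22.2%), and shRNA 2 raised 28 and lowered 2 (17.4% and 19.4%). At day 3 shRNA 1 raised 25 and lowered 4 (20.6% and 18.7%), and shRNA 2 raised 13 and lowered 6 (16.8% and 14.5%). At day 0 the numbers were 6 raised and 8 lowered for shRNA 1 (15.8% and 18.9%) and 1 and 3 for shRNA 2 (7.38% and 10.2%), shares near those of all genes. The members lowered by either shRNA at days 7 and 11 were Pdk4, Idh1, Idh2 and Ldhb. These comparisons share their 4 control libraries, so they are not independent of each other. Each shRNA group had 2 libraries, whose spread was estimated together with that of the control group.

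Compared with each other, shRNA 2 libraries were higher than shRNA 1 libraries for 9 members and lower for 5 at day 0, beside 18.6% and 16.4% of all genes. The numbers were 3 and 13 at day 3 (10.6% and 8.94%), 2 and 14 at day 7 (7.52% and 8.9%), and 4 and 3 at day 11 (11.6% and 10.4%). At day 7 the 2 higher ones were Ldhb (0.36) and Fh1 (0.22), and the 14 lower ones included Idh3a (-0.38), Ogdh (-0.34), Mdh1 (-0.31), Slc25a1 (-0.31), Dld (-0.30), Pcx (-0.27) and Ldha (-0.22). The day 7 count fell to 8 without shRNA 1 replicate 1, shRNA 1 replicate 2 or shRNA 2 replicate 1, when the share of all genes called also fell, from 16.4% to 10.4%, 7.57% and 10%. Without shRNA 1 replicate 2 the day 3 count fell to 9 (12.7% of all genes called, from 19.6%) and the day 11 count to 3 (11.2%, from 22%). The day 0 count for shRNA 1 against control fell from 14 to 9 and 8 without its replicate 1 and 2 (23.7% and 24.6% of all genes, from 34.7%).

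The shRNAs went opposite ways, each past the test against control, for Ldhb at day 0 (-0.13 with shRNA 1 and 0.24 with shRNA 2) and at day 11 (-0.27 and 0.44), and for Fh1 at day 3 (-0.26 and 0.21). At day 3 Fh1 stood at 11.00, 10.83, 10.88 and 10.98 in the 4 control libraries, at 10.67 and 10.64 with shRNA 1 and at 11.14 and 11.13 with shRNA 2, which puts the controls between the shRNAs. The largest difference between the shRNAs was that of Pdk4 at day 3, where shRNA 1 gave -0.01 and shRNA 2 gave -1.06 against control, a difference of -1.04 (SE 0.058, adjusted p = 8.15e-16). At day 0 it was the other way round, with -0.84 for shRNA 1 and -0.28 for shRNA 2. Idh3a, Pcx, Pdhb and the carrier subunits were raised by each shRNA at days 3 and 7, with the same sign and past the test.

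**Figure D4:**
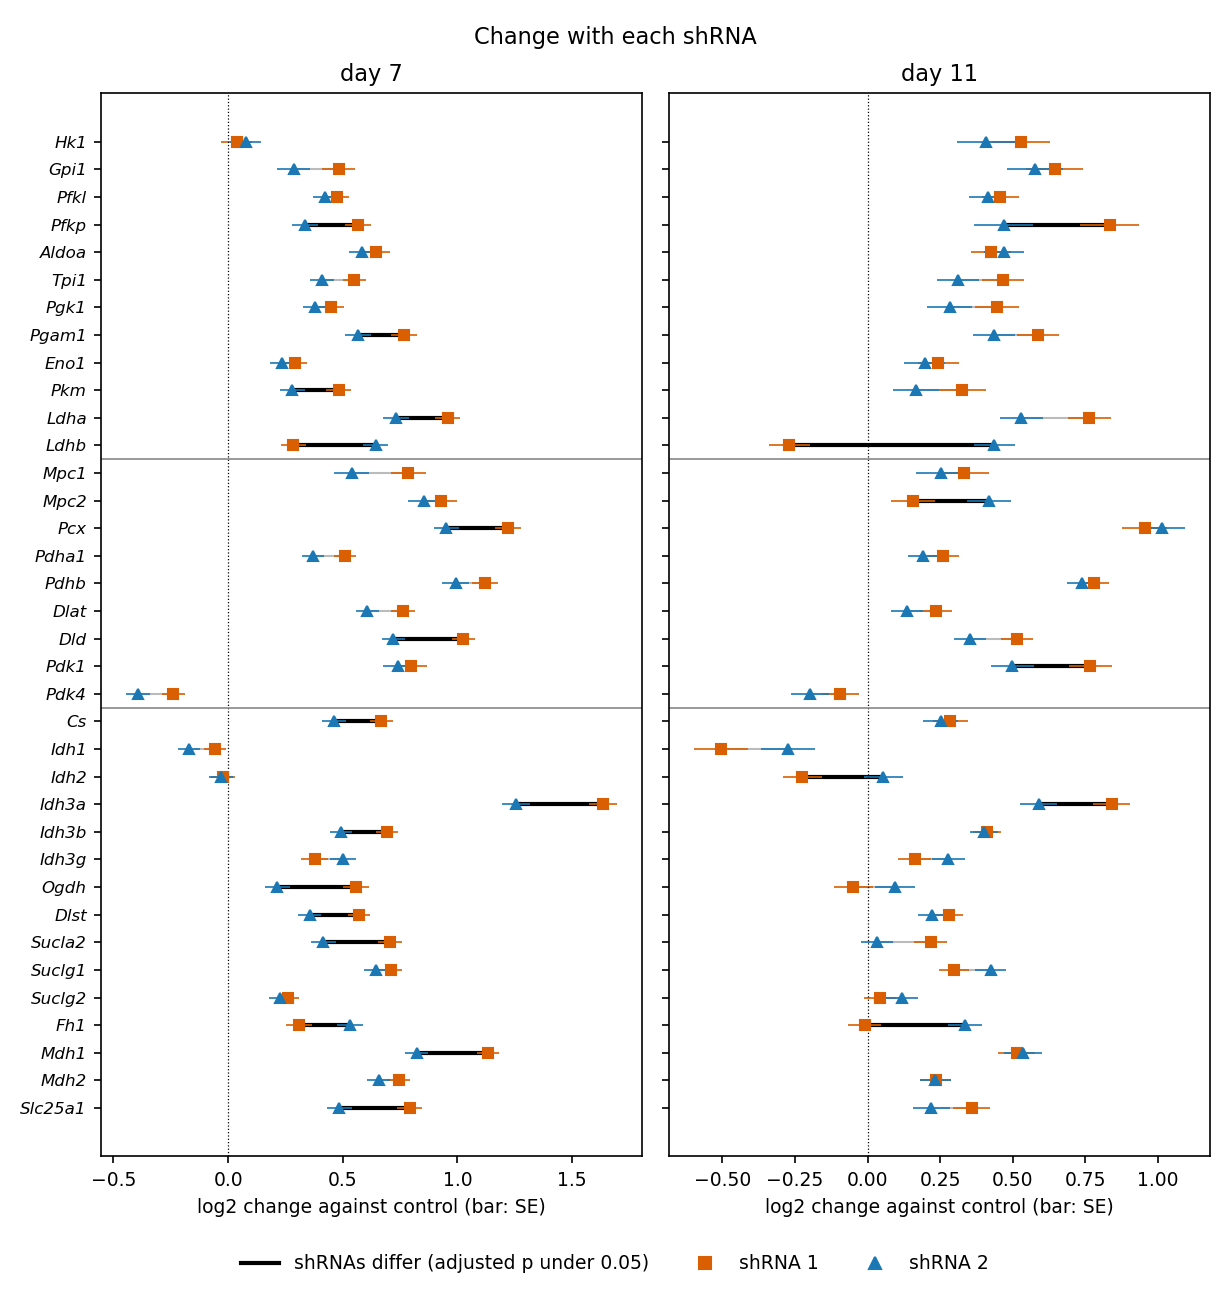
Log2 change against control of the same day with shRNA 1 (orange squares) and shRNA 2 (blue triangles) for each gene at day 7 (left) and day 11 (right); horizontal bars are SE, and a black line joins the shRNAs where they differ at an adjusted p under 0.05. Nearly all points lie right of 0 at day 7, and Ldhb at day 11 has its shRNAs on opposite sides.

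Genes of the same pathways outside the 36 were mostly called higher at day 7, when 24.9% of all genes were called higher and 22.6% lower (16.8% and 16.2% at day 11). Of 20 other glycolysis genes, 17 were in the table and 14 were tested, of which 9 rose and 1 fell at day 7 and 8 rose and 1 fell at day 11. Hexokinase 2 (Hk2) rose by 0.91 at day 7 and 1.29 at day 11, Gapdh by 0.80 and 0.79, and Pfkfb3, which makes the activator of phosphofructokinase, by 0.58, 0.59 and 1.00 at days 3, 7 and 11. Muscle enolase Eno3 was the 1 that fell, by 0.72 at day 7 and 0.76 at day 11. Of 14 other pyruvate genes 13 were tested at day 7, and 10 rose and 2 fell; at day 11, 9 rose and 2 fell. Pdhx, which tethers Dld in the pyruvate dehydrogenase complex, rose by 0.83, malic enzyme Me1 by 0.75 and Pck1, which withdraws oxaloacetate, by 0.36 at day 7 and 1.07 at day 11. Pck1 was near the floor, with day 11 controls at 4.17, 3.29, 3.58 and 3.28 and knockdown libraries at 4.35, 4.16, 5.13 and 4.97. The controls at 3.29 and 3.28 were under the minimum linear value of 10, so its knockdown libraries alone carried it past the filter that day. The phosphatase subunit Pdp1, which reverses the action of the kinases, fell by 0.96 at day 7 and 0.71 at day 11, and Me3 was the other one that fell (-0.46 and -0.82). Of 15 other TCA cycle genes, all tested, 10 rose and 2 fell at day 7 and 6 rose and 2 fell at day 11. The dicarboxylate carrier Slc25a10 had the largest rise there (1.45 at day 7), with the succinate dehydrogenase subunit Sdhb at 0.77, while Ogdhl (-0.56) and Nnt (-0.34) fell. Acly, which cleaves the exported citrate, did not pass the test (-0.08 at day 7, interval -0.25 to 0.09).

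Other gene lists changed too. Of all genes tested, 14.6%, 24.9% and 16.8% were called higher with the knockdown at days 3, 7 and 11, and 12.1%, 22.6% and 16.2% lower. At day 0 the shares were 0.817% and 2.44%. Adipocyte markers already summed to 20230 to 20840 in control and 22440 to 24010 in knockdown libraries at day 0. Fibroblast markers summed to 737400 to 772800 and 605500 to 693200 there, while the sums of proliferation markers and hypoxia-induced genes overlapped. The 10 adipocyte markers were all higher in knockdown at days 3 and 7 and all but Cd36 at day 11, and their summed linear value at day 7 was 49140 to 53390 in control and 129000 to 193100 in knockdown libraries. Of the 10 fibroblast markers 8 were lower at day 7, with sums of 606100 to 653400 in control and 468700 to 526100 in knockdown, and 5 were lower at day 11. Of the 10 proliferation markers 9 were higher at day 7 (8694 to 10340 in control, 11570 to 14040 in knockdown) and Ccna2 and Mcm2 were lower at day 11. All 10 genes of a list of hypoxia-induced genes, among them Bnip3, Egln3 and Vegfa, were higher at days 7 and 11, with sums at day 11 of 48660 to 58840 in control and 102400 to 119600 in knockdown. At day 3 Vegfa was higher, and at day 0 Vegfa and P4ha1 were lower. At day 11, when its median change was 1.07, that of the 12 glycolysis members was 0.44 and that of the TCA cycle 0.23. Of the leukocyte markers Cd68 was higher at days 7 (0.87) and 11 (0.86) and Lyz2 was lower at day 7 (-0.75), and the sum over the 5 in the table at day 11 was 176.4 to 243.6 in control and 243.8 to 436.8 in knockdown. Pecam1 did not pass the test on any day. The part of these lists in the changes of the 36 genes was not tested.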

How the data were processed

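RNA of 3T3-L1 cells was sequenced in 32 libraries, prepared with spin columns and an Illumina TruSeq RNA kit, per the labels' protocols. The submitters' processing notes name TopHat2 2.1.0, Bowtie2 2.2.6, SAMtools 1.3.1 and HTSeq 0.6.1; their roles, the genome build, the annotation, the use of strand and the final transform are not given in the sources used here. The deposited table holds log2 values for 20560 genes (28 without a symbol) from -1.56 to 17.99, as the values show, although it is named as normalized counts. Some log transforms draw genes with few reads towards their mean, which understates their changes; whether this one did is not given. Depth in reads is not given, so precision rests on the spread between libraries.

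The 36 genes and the gene lists were chosen with earlier results of these data known. Groups came from sample titles. limma 3.58.1 in R 4.3.3, with trend and robust empirical Bayes, was run on the values as deposited, over genes whose linear value was at least 10 in at least 4 libraries of the fit, with Benjamini-Hochberg adjustment over all of them; intervals are 95% and unadjusted for the number of genes. There was 1 fit per day for knockdown against control (both shRNAs in 1 group), a 3-group fit per day for the shRNAs, 1 fit of 16 control libraries for the time course, and 1 of all 32 for differences between days. The method was tested on simulated data. Genes with values in every library were, per group, the largest called rise and fall at day 7 and day 11 of knockdown and at day 7 in control cells, and the pairs Mpc1 and Mpc2, Pdk1 and Pdk4, Ldha and Ldhb, and Pfkl and Pfkp; Pdhb, Mdh1, Hk1, Fh1, Me3, Nnt, Pdk2, Pdk3, Pfkm, Cd68, Lyz2 and Pecam1, the days shown and the printed promoters were chosen after values were seen, and 1 gene of the other lists is not reported here. Exon lengths, overlaps and copies are from GENCODE M21 (GRCm38), by Ensembl ID. Alternatives were other filters, scalings, pseudocounts and fits, and leaving out single libraries; for each shRNA against control and for day 11 against day 7 they were added after the values were seen.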

Additional observations from a re-analysis of the deposited data

Results flagged for a closer look

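In 96 groups of 4 libraries examined for the genes shown library by library, 2 held a library far from the other 3, where chance gives about 1 in 20. Idh3a in control replicate 2 at day 11 was 10.24, with the other 3 controls at 10.36. Pdk1 in control replicate 4 at day 0 was 10.6, with the others between 10.77 and 10.80.

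The knockdown difference changed between days, by a test of the difference itself, for 9 members at day 3 against day 0, 31 at day 7 against day 0, 24 at day 11 against day 0 and 18 at day 11 against day 7.

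The shRNAs had effects of opposite sign, each past the test, for Ldhb and Fh1. The shRNA 2 minus shRNA 1 difference of Ldhb was 0.37 at day 0 (limma, adjusted p = 2.43e-06) and 0.71 at day 11 (1.57e-05). That of Fh1 at day 3 was 0.48 (2.04e-07).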

How the results depend on the processing

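Single members were followed under the alternatives only for knockdown against control and for control days 7 and 11 against day 0. No called member changed direction there. Of 4392 such values, 4290 kept their side of the threshold, 58 lost it and 44 gained it. The number of members called moved by more than 1.5 times in these cases. With replicate block, knockdown against control gave 7 at day 3 and 16 at day 11; the calls it lost at day 3 included Idh1 and Idh2 (adjusted p = 0.0688 and 0.0683) and at day 11 Idh1 (0.0592), and no other count moved that far under the block. Replicate numbers were not taken as pairs, since same-numbered libraries of different groups on a day did not all deviate together (correlations 0 to 0.22, median 0.04, over 24 pairs). The highest were at day 11, where the block left 16 calls: 0.1, 0.1, 0.215, 0.126, 0.142 and 0.004. Pairs of shRNA 1 with shRNA 2 repeat 1 value for both replicate numbers, so the 24 are not all separate. With shRNAs as separate groups, knockdown against control gave 8 at day 0 and 25 at day 3. Without trend and robust estimation, shRNA 2 against shRNA 1 gave 7 at day 3, 7 at day 7 and 2 at day 11, shRNA 1 against control at day 0 gave 8 and shRNA 2 against control at day 0 gave 2. Without a filter, shRNA 2 against shRNA 1 at day 11 gave 4, and in 1 fit of all 32 libraries 13; shRNA 1 against control at day 0 gave 9 in that fit. The shares of all genes called in the fits without trend, without a filter and of all 32 libraries are not set beside these counts. Whether the members or all genes moved there cannot be read from the counts. The cause of these differences was not tested.

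Leaving out 1 library, knockdown against control called 0 to 1 members at day 0 (1 without either shRNA 2 library), 14 to 18 at day 3, 33 to 34 at day 7 and 26 to 29 at day 11. The control course gave 33 to 34, 34 and 28 to 30 at days 3, 7 and 11 against day 0, 28 to 29 for day 7 against day 3 and 25 to 28 for day 11 against day 7. In the same order, 74.4% to 76.8%, 66.3% to 69.2%, 61.2% to 65.1%, 71.9% to 74.3% and 51.2% to 55.1% of all genes were called. The change of the knockdown difference gave 8 to 10, 31 to 32 and 22 to 26 against day 0, and 14 to 19 for day 11 against day 7. Of all genes, 4.9% to 7.78%, 26.9% to 31.5%, 20% to 23.6% and 9.99% to 13.5% were called in those fits. The shRNAs against each other gave 10 to 15, 9 to 17, 8 to 18 and 3 to 7 at days 0, 3, 7 and 11. shRNA 1 against control gave 8 to 14, 23 to 29, 33 and 27 to 31, and shRNA 2 gave 3 to 5, 16 to 20, 32 to 35 and 23 to 31. The share of all genes called moved too: at day 0 it was 23.7% to 35.6% for shRNA 1 and 7.17% to 20.2% for shRNA 2, near the members' own, and for knockdown against control 0.842% to 4.26%, 19.7% to 29.6%, 42.6% to 47.5% and 24.1% to 35.3% at days 0, 3, 7 and 11. In the fits of the shRNAs against each other the share of all genes called moved as well, on every day. Their counts alone therefore do not set the members apart from all genes. Where an shRNA was left with 1 library, it was assumed to vary like the other groups.

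Rescaling libraries to equal totals moved the median change of all genes by -0.13 for control day 3 against day 0, and lowered the share of higher among all called genes there from 50.1% to 38.6%. It moved that share from 25.1% to 43.3% for knockdown at day 0, from 56.2%, 56% and 53.6% to 42.4%, 40.7% and 40.1% for the change of the knockdown difference at days 3, 7 and 11, and from 45.8% to 61.9% for the shRNAs at day 7. By less than 10 points, it moved the share from 48.2% to 39.2% and from 51.1% to 43.6% for control days 7 and 11 against day 0, and from 52.4% to 44.7% and from 50.8% to 44.4% for knockdown at days 7 and 11. In these 4 comparisons more genes were then called lower than higher. The size of small changes therefore depends on the scaling.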
